A study of Sus scrofa with 12 samples.

Results

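The genes described here build fat and store it: 10 transcripts of lipid droplets and of fatty acid synthesis, measured in skeletal muscle of pigs whose meat lost much or little water. PLIN1, PLIN4 and CIDEC coat the droplet. FASN, SCD, ACACA, ACLY and ME1 make fatty acids and the reducing power for them. PPARG regulates fat cell genes, and LIPE breaks stored fat down. In the files they are ENSSSCG00000001844 (PLIN1), ENSSSCG00000013512 (PLIN4), ENSSSCG00000011557 (CIDEC), ENSSSCG00000029944 (FASN), ENSSSCG00000010554 (SCD), ENSSSCG00000017694 (ACACA), ENSSSCG00000017421 (ACLY), ENSSSCG00000004454 (ME1), ENSSSCG00000011579 (PPARG) and ENSSSCG00000003018 (LIPE). The 10 were chosen by name, with earlier results of these data known. All 10 were among the 20741 features counted and passed the filter on low counts, which left 10093 features for testing.

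The 12 libraries came from 6 high drip animals of 167 to 186 days and 6 low drip animals of 172 to 189 days, with 3 males and 3 females in each group. Drip loss is the fluid that meat gives off after slaughter, so a high drip animal has muscle with a low water holding capacity. The labels name the tissue as muscle, with no muscle, breed or drip value, and no treatment. Replicates 1 to 3 of each group are female and replicates 4 to 6 are male.

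Fat in muscle sits in small droplets inside the fibres and in large droplets of fat cells between them. Fatty acids are made in the cytosol: ACLY splits citrate into acetyl-CoA, ACACA turns that into malonyl-CoA, FASN joins the units into palmitate, SCD puts a double bond into the product, and ME1 supplies NADPH. In the pig, most of this synthesis takes place in fat tissue. PLIN1 shields the large droplets of fat cells from lipases, CIDEC lets droplets merge and grow, and PLIN4 is a perilipin of fat cells and muscle that binds small droplets.

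The libraries held 8009627 to 12622043 counts each, and the 8 muscle markers that could be matched summed to 127093 to 178409 CPM (counts scaled to library size) in high drip and 139143 to 193568 CPM in low drip animals. For 3 females (high drip 2, low drip 1 and low drip 2) the whole-annotation table that GEO records for the animal carries another animal's number in its name. Tables were given to animals by that number, which made 737 to 745 of 770 counts identical with the animal's second, smaller table, against 123 to 136 for the recorded ones. Results are given below with these 3 animals and without them. A second feature sets libraries apart: albumin stood at 25.6 to 317 CPM of the whole table in 6 libraries (high drip 1 to 4, low drip 5 and 6) and at 0.327 to 2.49 CPM in the other 6. The 22 liver markers summed to 13.3 to 633 CPM in high drip pigs, against 12.6 to 111 CPM in low drip pigs. All high drip females and no low drip female had these liver transcripts, so within females drip and liver transcripts cannot be told apart.

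The first question was whether the coat and synthesis genes differ between drip groups. In these animals 9 of the 10 genes had a lower fitted level in high drip than in low drip muscle, ME1 being the exception, with a median log2 fold (high minus low drip) of -0.36. Over all 10093 features the median was 0.00 and 48.8% of folds were negative. The 10 genes were chosen with earlier results of these data known, so this contrast is a description and not a test. FASN and CIDEC had the lowest folds. No gene passed the test: 0 of 10 members and 0 of 10093 features (0%) had an adjusted p below 0.05 in edgeR's quasi-likelihood test with sex as a term, and each member's adjusted p was 0.999. At an unadjusted p below 0.05 there was 1 member, FASN, where 3.58% of all features lay below that value and 1.95% were there with a lower level in high drip (361 features by edgeR in all, 344 by DESeq2, which also called 0 after adjustment).

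FASN, the enzyme that assembles palmitate, had 15.9, 26.3 and 49.2 CPM (lowest, median and highest) in high drip animals and 33.0, 43.5 and 77.1 CPM in low drip animals. The groups overlapped, but 4 of the 6 high drip animals lay below every low drip animal, and all 6 low drip animals lay above the high drip median. The means were 28.8 ± 13.1 CPM in high drip pigs, against 47.8 ± 16.0 CPM in low drip pigs (SD, n = 6 each), a log2 fold of -0.72 ± 0.27 (SE) with a 95% confidence interval of -1.30 to -0.15. The unadjusted p was 0.0175, rank 98 of 10093 features, and an exact permutation test of animals within sex (two-sided, 400 regroupings, n = 6 each, smallest possible p 0.005) gave p = 0.03. That exact p was 0.05 over the 9 animals whose record and file number agree. It lay between 0.02 and 0.1 with one animal left out, and under 0.05 only without high drip 1, 2 or 6 or low drip 5. The fold was -0.84 over the same 9 animals, and -0.74 with the tables as recorded. It was -0.96 among libraries with liver transcripts and -0.66 among those without, contrasts that rest on males alone (1 high against 2 low drip males with, 2 against 1 without).

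**Figure D1:**
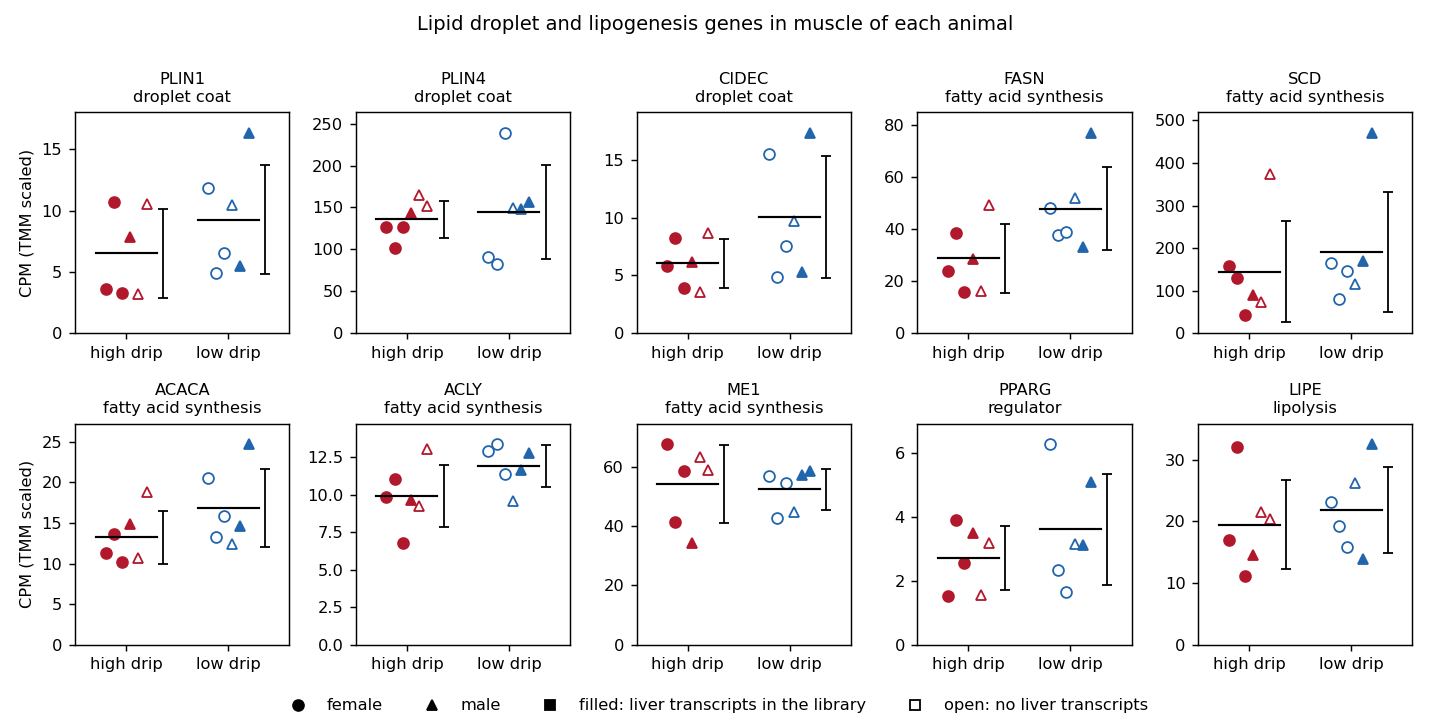
Each panel plots one gene's CPM (counts scaled to library size by TMM, axis from 0) in 6 high drip (red) and 6 low drip (blue) animals. Circles are females and triangles males, filled where the library holds liver transcripts, with the group mean as a line and its SD as a bar. All 10 panels overlap between groups, and in FASN 4 high drip animals lie below the lowest low drip animal at 33.0 CPM.

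ACACA and ACLY, which work before FASN in the same route, had narrower relative ranges. ACACA, the carboxylase that makes malonyl-CoA, had 10.21, 12.5 and 18.8 CPM in high drip pigs, against 12.4, 15.2 and 24.8 CPM in low drip pigs. The ranges overlapped through most of their length, and 3 high drip animals lay below every low drip animal. The fold was -0.36 ± 0.19 (95% confidence interval -0.77 to 0.06, edgeR adjusted p 0.999, exact permutation p = 0.155, n = 6 each). ACLY, the source of cytosolic acetyl-CoA, had 6.80, 9.73 and 13.0 CPM in high drip pigs, against 9.57, 12.2 and 13.4 CPM in low drip pigs, and its fold was -0.26 ± 0.15 (interval -0.59 to 0.06, edgeR adjusted p 0.999).

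ACLY was the one member whose drip groups did not overlap within a sex. Its 3 high drip females lay at 6.80 to 11.1 CPM and its 3 low drip females at 11.4 to 13.4 CPM, while the males of both groups overlapped. Of all tested features, 3.68% did not overlap among females with high drip lower (6.76% in either direction). Among males 4.96% did so (9.7% in either direction), and no member was one of them. Over all 6 against 6 animals, 0.0892% of features did not overlap, and again no member was one. Both ACACA and ACLY turned sign among the libraries without liver transcripts, at 0.25 and 0.22, where the contrast rests on males alone.

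SCD, the desaturase, varied more between animals than any other member, with a coefficient of variation of 75.4% over the 12. It had 44.1, 110.0 and 373 CPM in high drip pigs, against 79.9, 156 and 472 CPM in low drip pigs. In each group one male, replicate 6, lay far above the rest. The fold was -0.37 ± 0.44 (interval -1.31 to 0.57, edgeR adjusted p 0.999), and it was 0.00 without low drip 6 and -0.85 without high drip 6. Among libraries with and without liver transcripts it was -1.86 and 0.94, contrasts that rest on males alone. With liver transcripts, high drip 4 (89.6 CPM) stood against low drip 5 and 6 (171 and 472 CPM). Without them, high drip 5 and 6 (73.9 and 373 CPM) stood against low drip 4 (116 CPM). The replicate 6 males thus fell in different subsets.

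ME1, the malic enzyme, had 34.5, 58.9 and 68.0 CPM in high drip pigs, against 42.9, 55.9 and 58.8 CPM in low drip pigs. The high drip animals spread to both sides of the low drip ones. Its fold of 0.04 ± 0.16 had an interval of -0.30 to 0.39.

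Of the coat genes, CIDEC had the lowest fold. It had 3.55, 5.97 and 8.66 CPM in high drip pigs, against 4.84, 8.62 and 17.4 CPM in low drip pigs, from 30 to 194 counts per library. Every high drip animal lay below the 3 highest low drip animals (9.67 to 17.4 CPM), and the lower ends of the ranges overlapped. The means were 6.06 ± 2.12 CPM in high drip pigs, against 10.04 ± 5.28 CPM in low drip pigs, and the fold was -0.71 ± 0.33 (interval -1.43 to 0.00, unadjusted p 0.0502, edgeR adjusted p 0.999; exact permutation p = 0.16, n = 6 each). It was -0.47 without low drip 6, -0.76 over the 9 animals without a conflict and -0.95 with the tables as recorded.

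PLIN1 followed a like order of animals with wider overlap. It had 3.19, 5.75 and 10.7 CPM in high drip pigs, against 4.94, 8.50 and 16.4 CPM in low drip pigs, and 3 high drip animals lay below every low drip one. Its fold was -0.47 ± 0.37 (interval -1.25 to 0.31, edgeR adjusted p 0.999, exact permutation p = 0.235, n = 6 each). The fold moved to -0.26 without low drip 6, to -0.81 without high drip 2, to -0.66 over the 9 animals without a conflict and to -0.91 with the tables as recorded.

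PLIN4 had a fold nearer to 0. It had 102, 135 and 164 CPM in high drip pigs, against 82.8, 149 and 239 CPM in low drip pigs, so the high drip range lay inside the low drip one. The fold was -0.10 ± 0.21 (interval -0.55 to 0.35, edgeR adjusted p 0.999), and it was 0.21 without low drip 3 and 0.01 with age as a term. In the later RefSeq annotation of assembly Sscrofa11.1, PLIN1, PLIN4, CIDEC, ACACA and LIPE each overlap 1 other gene, for PLIN4 the gene HDGFL2. The library kit does not mark strand, so reads from such a partner could not be told apart from the member's own.

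The regulator and the lipase gave wide intervals. PPARG, the nuclear receptor of fat cell genes, had 13 to 58 counts per library, with 1.53, 2.87 and 3.90 CPM in high drip pigs, against 1.66, 3.13 and 6.29 CPM in low drip pigs. At its lowest count, counting error alone gives a coefficient of variation of 27.7%. Its fold was -0.40 ± 0.33 (interval -1.11 to 0.32), and -0.09 without low drip 1. LIPE, the hormone-sensitive lipase, had 11.2, 18.7 and 32.1 CPM in high drip pigs, against 13.9, 21.2 and 32.6 CPM in low drip pigs, nearly the same range. Its fold was -0.16 ± 0.25 (interval -0.69 to 0.38), and it was -0.01 without low drip 6.

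**Figure D2:**
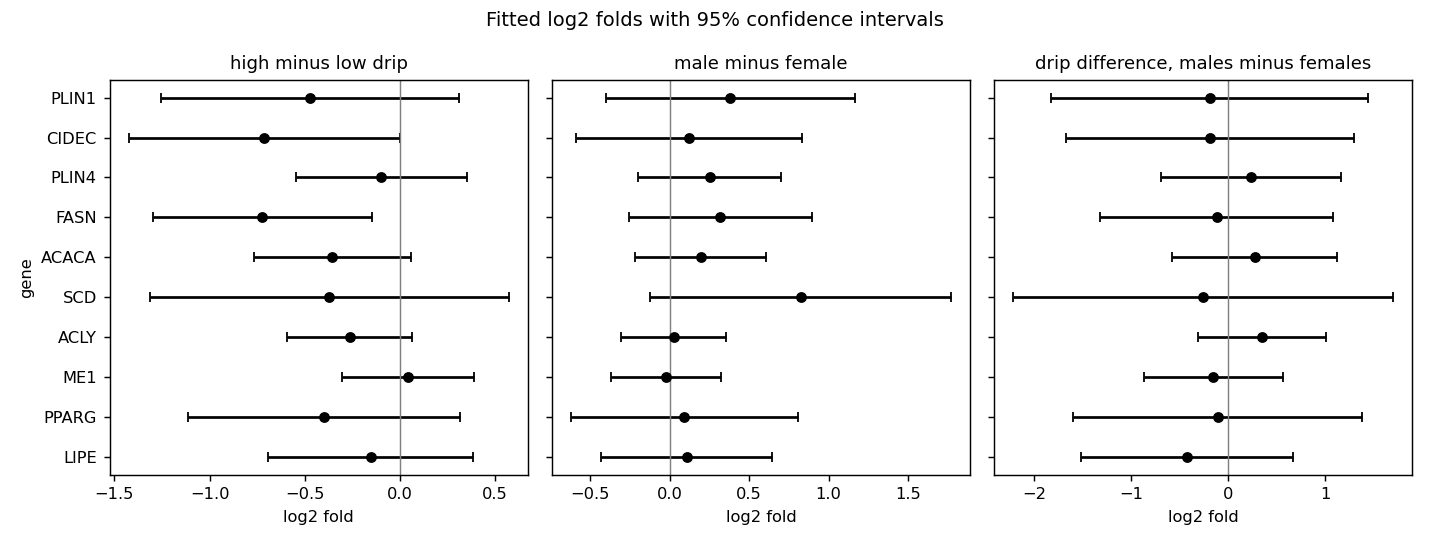
Points are fitted log2 folds and bars their 95% confidence intervals for the 10 genes, for high minus low drip (left), male minus female (middle) and the drip difference in males less that in females (right), each over 12 animals. The FASN drip interval of -1.30 to -0.15 does not reach 0, CIDEC's ends at 0.00, and no adjusted p passed 0.05.

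Coat and synthesis genes were then set side by side. The median fold was -0.47 for the 3 coat genes, all negative, and -0.36 for the 5 synthesis genes, of which 4 were negative. Within each set, 1 gene lay near 0, PLIN4 at -0.10 and ME1 at 0.04. Levels are not compared between genes, since no gene lengths were used. In bulk muscle, fewer fat cells and less RNA of these genes per cell cannot be told apart.

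The median fold over the 10 genes was -0.32 in the 9 animals without a conflict and -0.53 with the tables as recorded, with 9 negative folds each time. Among libraries with liver transcripts all 10 folds were negative, with a median of -0.59. Among those without them 5 were negative and 5 positive, with a median of -0.12, and both of these contrasts rest on males alone. In no other fit or left-out animal did any member reach an adjusted p below 0.05, the lowest being 0.773 for FASN.

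Seen per animal, the genes of both roles moved together in a few pigs. In low drip 6, a male, all 10 genes lay above their mean over the 12 animals, and 6 of them (PLIN1, CIDEC, FASN, SCD, ACACA and LIPE) reached their highest level there. Coat genes deviated by 0.89 and synthesis genes by 0.82 on average in that animal, in log2 CPM. High drip 6, also a male, had all 10 genes above their mean too, with average deviations of 0.34 for coat and 0.55 for synthesis genes. So the animal nearest to low drip 6 for SCD came from the high drip group.

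At the other end, high drip 3, a female, held the lowest level of 5 genes (FASN, SCD, ACACA, ACLY and LIPE), with average deviations of -0.65 for coat and -0.75 for synthesis genes. High drip 5, a male, held the lowest PLIN1 and CIDEC, with averages of -0.59 for coat and -0.47 for synthesis genes. The averages of the 2 roles had opposite signs in 4 animals. In high drip 2 they were 0.14 for coat and -0.06 for synthesis genes, in high drip 4 they were 0.02 and -0.32, in low drip 4 they were 0.38 and -0.05, and in low drip 5 they were -0.21 and 0.10. Low drip 2 had a coat average of -0.58, made up by PLIN4, PLIN1 and CIDEC alike, and a synthesis average of -0.15 that held both the highest ACLY of all animals and an SCD deviation of -0.77.

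**Figure D3:**
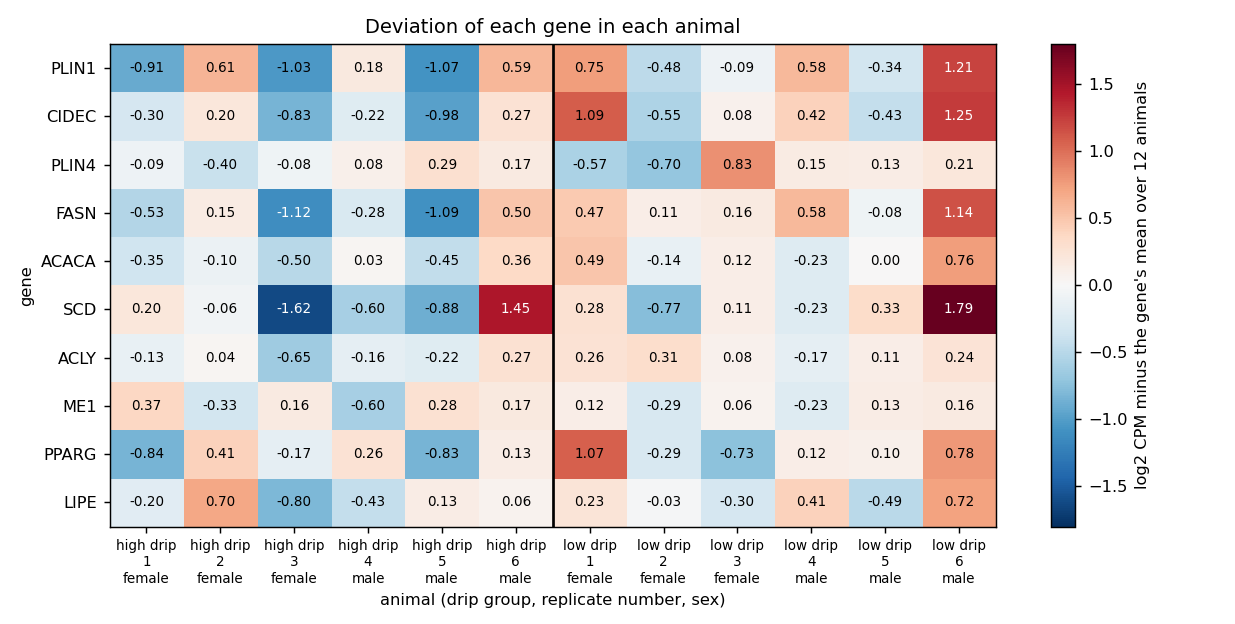
Each cell gives one gene's log2 CPM in one animal less its mean over 12 animals, with coat genes in the top 3 lines and synthesis genes below them; the black line parts high drip (left) from low drip animals. Low drip 6 and high drip 6 are above the mean for every gene, and high drip 3 is lowest for 5 genes.

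Across animals, PLIN1, CIDEC and FASN varied together. PLIN1 and CIDEC had a Pearson r of 0.917 over 12 animals (permutation p = 5e-05, 0.00113 after Benjamini-Hochberg adjustment over 45 pairs) and a Spearman rho of 0.944 (permutation p = 3e-05, adjusted 0.00135). PLIN1 and FASN, a coat and a synthesis gene, had r of 0.909 (p = 5e-05, adjusted 0.00113) and rho of 0.853 (p = 0.00078, adjusted 0.00878). CIDEC and FASN had r of 0.883 (p = 0.00029, adjusted 0.00435) and rho of 0.902 (p = 0.00018, adjusted 0.0039). These genes share each library and its depth, so the relation is one of libraries and not of independent measurements. The members were chosen with earlier results of these data known, so the pair p values given here and below describe the pairs and are not a test.

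Without the 2 animals farthest from the median of the first gene, these 3 pairs were the only ones of the 45 to pass by Pearson r, and only PLIN1 with CIDEC passed by Spearman rho. PLIN1 with CIDEC gave an r of 0.859 and a rho of 0.903 (adjusted permutation p 0.0222 and 0.0392) without high drip 5 and low drip 6. PLIN1 with FASN gave 0.842 and 0.758 (adjusted permutation p 0.0222 and 0.152) without the same animals. CIDEC with FASN gave 0.879 and 0.867 (adjusted permutation p 0.0222 and 0.0502) without low drip 1 and low drip 6. Within females and within males the r of PLIN1 and CIDEC was 0.886 and 0.970, that of PLIN1 and FASN 0.845 and 0.958, and that of CIDEC and FASN 0.776 and 0.967. Among libraries with and without liver transcripts the same pairs gave 0.903 and 0.945, 0.919 and 0.908, and 0.955 and 0.815. With 6 animals no pair could pass the adjustment on its own, and 0 of 45 passed in any of these subsets. Which animal a table is given to does not enter a correlation over the 12 libraries. In the 9 animals without a conflict the r values of these 3 pairs were 0.931, 0.951 and 0.961.

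Adjustment was over the 45 member pairs alone, and the share of passing pairs among other features was not computed. In all, 18 of the 45 pairs passed by Pearson r and 9 by Spearman rho, and all 18 were positive. They joined PLIN1 and CIDEC with each other and with FASN, ACACA, SCD, PPARG and LIPE, the synthesis genes FASN, ACACA, SCD and ACLY with one another, and ACACA with PPARG. FASN with ACACA had r of 0.832 and SCD with ACACA 0.825. PLIN1 had r of 0.814 with PPARG and 0.686 with LIPE. Without the 2 farthest animals, 3 pairs passed by Pearson r. The pairs that no longer passed then had r values from 0.41 (ACACA with PPARG, 0.70 over all 12 animals) to 0.75 (PLIN1 with LIPE, 0.69 over all 12), with adjusted permutation p from 0.439 to 0.0956. SCD with ACLY had an r of 0.47 without them and 0.70 over all 12, while ACACA with ACLY had 0.74 both times.

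PLIN4 and ME1 belonged to no passing pair. Their r with the other genes ran from -0.39 to 0.25 for PLIN4 and from -0.31 to 0.28 for ME1. PLIN4 and PLIN1, both perilipins, had an r of -0.04 over the 12 animals (permutation p = 0.9). Among these chosen genes, the passing pair within the coat set was PLIN1 with CIDEC, without PLIN4. Within the synthesis set the passing pairs lay among FASN, ACACA, SCD and ACLY, without ME1.

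**Figure D4:**
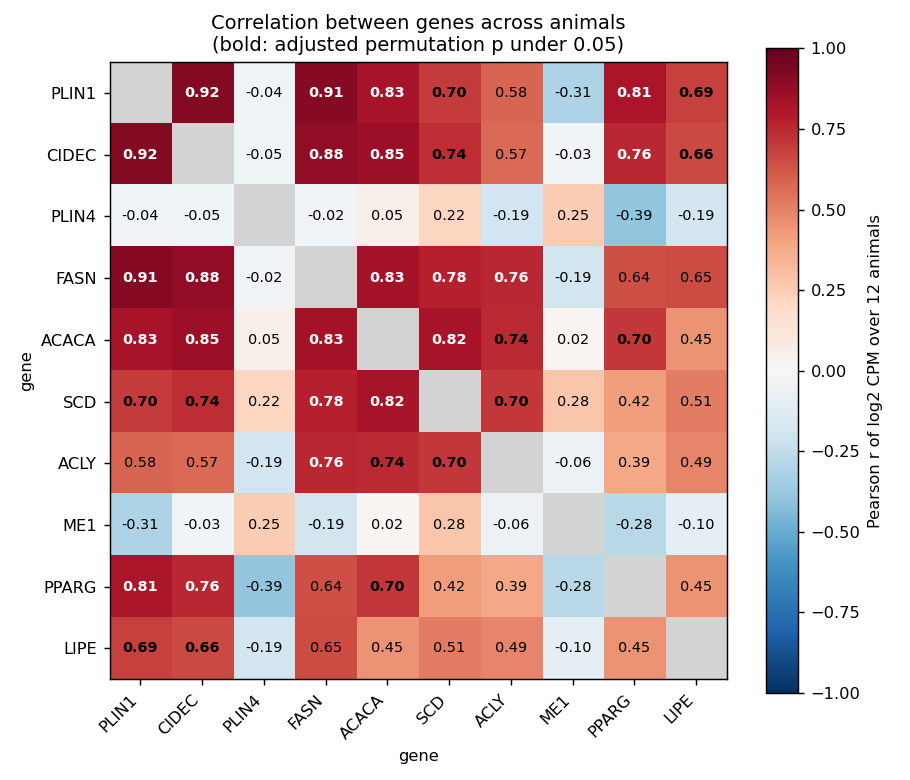
Each cell is the Pearson r of log2 CPM of 2 of the 10 genes over 12 animals, on a colour scale from -1 to 1, in bold where the permutation p adjusted over 45 pairs is below 0.05. PLIN1, CIDEC and FASN reach 0.88 to 0.92 with each other, while the PLIN4 and ME1 lines hold no bold value.

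Ranked by r among the 10092 other tested features, the closest to PLIN1 was CIDEC, with FASN at rank 2, ACACA at rank 7 and PPARG at rank 10. For FASN, PLIN1 was at rank 2 and CIDEC at rank 3. The non-member genes with a symbol and the highest r with PLIN1 were ALDOC (0.885), HAUS6 (0.833), SFRP1 (0.827), CDS2 (0.824) and NOTCH2 (0.794). For FASN they were ALDOC (0.872), HAUS6 (0.844), ZKSCAN4 (0.843), NOTCH2 (0.830) and GGNBP2 (0.810), so 3 genes were in both sets. ALDOC encodes an aldolase of glycolysis and ran from 6.70 to 30.6 CPM over the animals. No feature passed an adjustment over all 10092, where the permutation p of CIDEC with PLIN1 became 0.252 and that of PLIN1 with FASN 0.202. With 100000 permutations a lone feature could not pass this adjustment, whatever its r.

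The sexes were compared next, with drip as a term, and no member passed. SCD had the highest fold (male minus female), 0.82 ± 0.44, with means of 216 ± 166 CPM in males and 121 ± 48.2 CPM in females (SD, n = 6 each). Its interval ran from -0.12 to 1.77 and its edgeR adjusted p was 0.762. The male mean rested on replicate 6 of each drip group, since the other 4 males lay at 73.9 to 171 CPM and the females at 44.1 to 165 CPM. With age as a term the SCD fold was 0.28, without high drip 6 it was 0.37, and it was -0.30 and -0.17 among libraries with and without liver transcripts. The fold of -0.30 set only high drip 4 against the high drip females, and -0.17 only low drip 4 against the low drip females.

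For sex, 0 of 10 members passed, as did 0 of 10093 features (0%) in edgeR, with 674 (6.68%) at an unadjusted p below 0.05 and none of them a member. DESeq2 called 2 features and limma voom 0. In the members 9 of 10 folds were positive, with a median of 0.16, where all features had a median of -0.00. PLIN4 had a narrow male range, 143, 150 and 164 CPM, against 82.8, 114 and 239 CPM in females, so that 5 of the 6 females lay below every male. Its fold was 0.25 ± 0.21 (edgeR adjusted p 0.822). PLIN1 had a fold of 0.38 ± 0.37 (edgeR adjusted p 0.851), which became 0.05 with age as a term.

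The drip difference itself was compared between the sexes. Its difference, males less females, ran from -0.42 ± 0.51 for LIPE to 0.35 ± 0.30 for ACLY, with a median of -0.14. For FASN it was -0.12 ± 0.55 and for SCD -0.26 ± 0.91. Adjusted p was 0.9999 for every member in edgeR, 0 of 10093 features (0%) passed, and DESeq2 called 4. At an unadjusted p below 0.05 lay 345 features (3.42%), none of them a member. The log2 ratio of the group means (high over low drip) was -0.79 for FASN in males and -0.67 in females, -0.81 for CIDEC in males and -0.63 in females, and -0.58 for PLIN1 in males and -0.40 in females. For ACLY it was -0.09 in males and -0.44 in females.

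Other genes of the pathway had folds of both signs. Of 21 lipid droplet and lipolysis genes 12 were tested, and the 8 that are no member had 5 positive and 3 negative drip folds, with a median of 0.03. PLIN5, the perilipin of oxidative muscle that brings droplets to mitochondria, had 5.88 ± 2.02 CPM in high drip pigs, against 4.81 ± 2.45 CPM in low drip pigs, a fold of 0.38 ± 0.29. G0S2, an inhibitor of the lipase PNPLA2, had a fold of 0.56 ± 0.38, and FITM1, which helps form droplets in muscle, one of -0.08 ± 0.14.

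Of 25 fatty acid synthesis genes 15 were tested. The 10 that are no member had 7 positive and 3 negative folds with a median of 0.05. FADS3, of the desaturase family, had a fold of 0.35 ± 0.22, IDH1, a cytosolic source of NADPH, one of 0.22 ± 0.17, and SLC25A1, the carrier that exports citrate for ACLY, one of -0.17 ± 0.16. FASN, ACACA, SCD and ACLY had the 4 lowest folds of their list, but members and lists were chosen with earlier results of these data known.

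The 8 lipogenic regulators tested had 6 negative folds and a median of -0.12. MLXIPL, the carbohydrate response factor that acts on lipogenic genes, had -0.24 ± 0.18, NR1H3, a sterol-sensing receptor, -0.16 ± 0.11, and RXRG, a partner receptor of PPARG, -0.12 ± 0.14. The 8 triglyceride assembly genes had 5 negative folds and a median of -0.04. Among them GPAM, which starts glycerolipid synthesis in mitochondria, had 23.0 ± 4.25 CPM in high drip pigs, against 29.5 ± 7.01 CPM in low drip pigs, a fold of -0.35 ± 0.16 (unadjusted p 0.049, edgeR adjusted p 0.999). GPAT4 had a fold of -0.22 ± 0.16, and GPD1, which makes glycerol 3-phosphate, one of 0.21 ± 0.11. The 7 uptake genes had 5 positive folds and a median of 0.03, with SLC27A4, a fatty acid transport protein, at 0.43 ± 0.23, SLC27A1 at 0.15 ± 0.19 and ACSL1, an acyl-CoA synthetase, at -0.25 ± 0.21. None of the genes in these 5 lists passed the test for drip, and each adjusted p was 0.999 in edgeR.

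**Figure D5:**
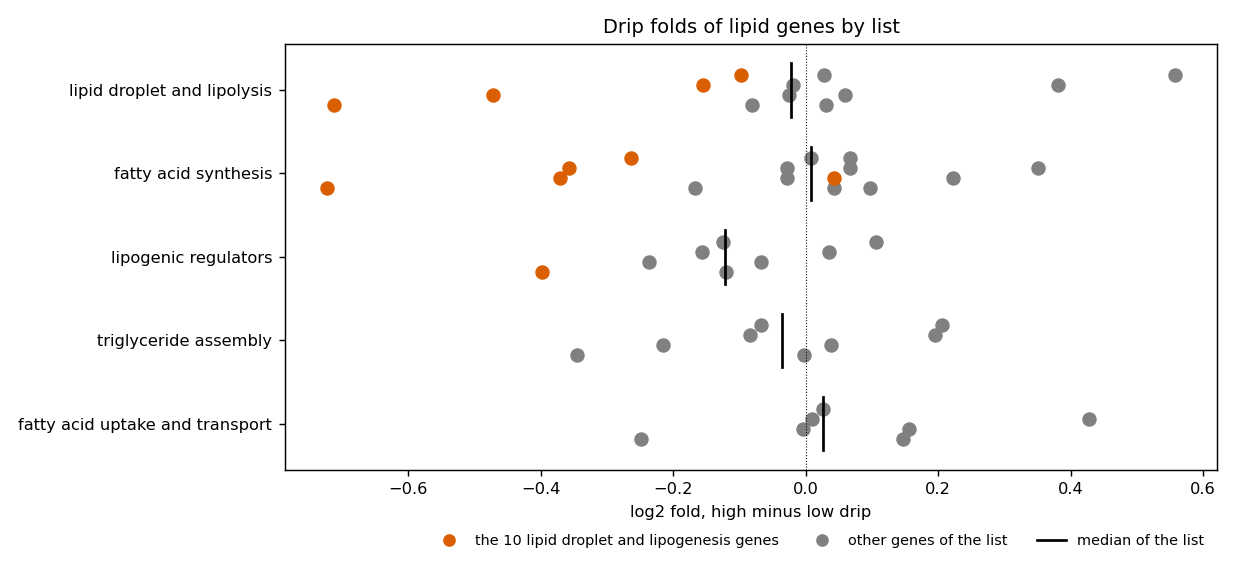
Points are the drip log2 folds (high minus low) of the tested genes of 5 lipid lists, orange for the 10 genes described here and grey for the rest, with the median of each list as a line. Apart from ME1, members make up the left end of the droplet and synthesis lists, whose medians are -0.02 and 0.01. Members and lists were chosen with earlier results of these data known.

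Markers of other cell types were set beside these results. PLIN1, CIDEC, PPARG and LIPE are themselves among the 18 adipocyte markers listed, of which 12 had an ID. ADRB3, LGALS12, TRARG1, ACVR1C and CEBPA were below the filter on low counts. ADRB3 had a median of 0 CPM in both drip groups and a highest level of 0.0895 CPM, in a low drip animal. LGALS12 had means of 0.476 ± 0.377 CPM in high drip pigs, against 0.863 ± 0.382 CPM in low drip pigs (SD). In the same order the means were 0.498 and 0.508 CPM for TRARG1, 0.665 and 0.638 CPM for CEBPA, and 0.0566 and 0.0339 CPM for ACVR1C. The drip difference of these filtered genes was not tested. ADIPOQ, LEP and FABP4 had no matching ID, so the fat cells in these samples were traced here by few transcripts. The 3 tested adipocyte markers that are no member had folds of 0.15 (PCK1, which liver also expresses), 0.06 (CFD, an adipocyte-secreted protease) and 0.21 (GPD1, which muscle also expresses). The 8 non-member adipocyte markers summed to 1493 to 1997 CPM in high drip pigs, against 1314 to 2040 CPM in low drip pigs, most of it GPD1. The share of fat cells in each sample was not measured, and its part in the results was not tested.

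Fibroblast and precursor markers summed to 2976 to 5597 CPM in high drip pigs, against 3539 to 4794 CPM in low drip pigs over 9 genes, and their median drip fold was -0.03. Endothelial markers summed to 206 to 312 CPM in high drip pigs, against 195 to 281 CPM in low drip pigs over 6 genes, with a median fold of 0.15. Macrophage markers summed to 29.9 to 84.0 CPM in high drip pigs, against 36.2 to 74.1 CPM in low drip pigs over 5 genes, with a median fold of 0.04. These ranges overlapped between drip groups, and no marker was called. Of the 12 tested liver markers 11 had a positive drip fold, with a median of 1.504 and none called. For all 12 the drip fold was lower in males than in females, with a median difference of -7.13 and none called. With the liver transcripts as a term, the folds of FASN, CIDEC and PLIN1 were -0.73, -0.75 and -0.51, against -0.72, -0.71 and -0.47 without it. PPARG moved from -0.40 to -0.49 and PLIN4 from -0.10 to -0.06, and the median of the members from -0.36 to -0.38. Drip and liver transcripts cannot be told apart in females, so this fit separates them through the males alone.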

How the data were processed

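The authors deposited raw counts per gene for muscle RNA of 12 pigs. Per the labels' protocols, muscle was snap frozen, RNA was extracted with Trizol, treated with DNase and kept at a RIN above 8.0, and libraries were made with a TruSeq v2 kit. Per the submitters' processing notes, TopHat2 2.0.3, Bowtie 0.12.7.0 and HTSeq were used with build Sscrofa10.2; the strand setting, counting mode and annotation release are not given in the sources used here. The summary lines that name no gene (39.9 to 44.4% of all lines' counts) were left out. Symbols were matched by gene ID for 10349 of 20300 Ensembl genes.

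Counts were fitted in R 4.3.3 with edgeR 4.0.16 (TMM scaling, filterByExpr by drip group, quasi-likelihood F test, two-sided), with sex as a term for drip, drip for sex, and their product for the interaction, and Benjamini-Hochberg adjustment over 10093 features at a threshold of 0.05. CPM are TMM scaled; folds are log2. Correlations use log2 CPM with a prior count of 2 and 100000 permutations, or all permutations below 10 animals. Alternatives were DESeq2 1.42.0 (also its size factors alone), limma 3.58.1 (voom), no filter, an age or liver term, liver subsets, other table assignments and each animal left out. The steps were tested on simulated data.

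The members and gene lists were chosen with earlier results of these data known. All members are named; of each list, up to 3 non-members with the smallest drip p, and for PLIN1 and FASN the 5 non-members with the highest r. Replicates are separate animals. No paired analysis was run, since the labels do not say that equal replicate numbers tie animals across groups. Counting error limits PPARG, PLIN1 and CIDEC most.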

Additional observations from a re-analysis of the deposited data

Results flagged for a closer look

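In 3 of 40 groups of 6 animals examined (each gene by drip and by sex) the highest animal lay far from the rest; chance gives about 5% of such groups. SCD reached 373 CPM in high drip 6, with the next high drip animal at 157 CPM. SCD reached 472 CPM in low drip 6, with the next low drip animal at 171 CPM. Both are males, and in both all 10 genes lay above their mean, though the other genes of these animals did not stand apart in this way. PLIN4 reached 239 CPM in low drip 3 among females, with the next female at 127 CPM. Without low drip 3, the PLIN4 fold for sex (male minus female) was 0.56, against 0.25 with it, and still had no adjusted p below 0.05 (edgeR, 0.605).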

How the results depend on the processing

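No member was called for drip, sex or their interaction by any tool, filter, term or left-out animal, and the drip folds of FASN, CIDEC, PLIN1, PPARG and LIPE stayed negative throughout: FASN from -0.96 to -0.56, CIDEC from -0.95 to -0.47 and PLIN1 from -0.91 to -0.26. Over all features, the number called for drip (0) became 2 among libraries without liver transcripts. The number for sex (0) became 2 with DESeq2, 1 with no filter, 3 among libraries with and 2 among those without liver transcripts. In these liver transcript subsets the drip numbers and folds rest on males alone. Those for sex rest on 1 male against females of the same drip group. The number for the interaction (0) became 4 with DESeq2 and 1 with a liver term. Leaving out one animal gave drip folds of -0.21 to 0.21 for PLIN4, -0.85 to 0.00451 for SCD and -0.0366 to 0.15 for ME1, and interaction folds of -0.61 to 0.27 for FASN and -1.40 to 0.56 for SCD. Drip folds turned sign with an age term for PLIN4 (0.0108), among libraries without liver transcripts for PLIN4 (0.0756), SCD (0.94), ACACA (0.25) and ACLY (0.22), and among those with them for ME1 (-0.77). The sex fold of SCD turned to -0.30 among libraries with and -0.17 among those without liver transcripts. The interaction turned to 0.17 for FASN and 0.0523 for SCD over the 9 animals without a conflict, to 0.0599 and 0.0606 with an age term, and to 0.16 for SCD with the tables as recorded. Members with an exact permutation p below 0.05 (1, FASN) became 0 over those 9 animals and 3 with the tables as recorded. With each animal left out in turn, such members numbered 0 to 2. The exact permutation test was run on the members alone, and the share of all features below 0.05 was not computed. Whether these counts differ from those of other features was therefore not tested. Passing pairs (18) became 0 within females, males, and libraries with or without liver transcripts, where no lone pair can pass with 6 animals, and 3 without the 2 farthest animals (1 by Spearman rho, against 9). Leaving out the 3 animals with a conflict, tried after seeing the data, gave 13. Beyond these, the cause was not tested. No paired analysis was run, because the labels do not say that animals with the same replicate number belong together. A fit paired by replicate number was not tried. At 6 animals a group, the drip interval of SCD spans -1.31 to 0.57 and that of PPARG -1.11 to 0.32.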

Other observations

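Of the 39 tested lipid-list genes that are no member, 3 had an unadjusted p below 0.05 for sex, where 6.68% of all features did. They are named here after their values were seen. MGLL, which splits off the last fatty acid of stored fat, had 75.6, 120.3 and 162 CPM in males and 119, 186 and 252 CPM in females (lowest, median and highest of 6), a log2 fold (male minus female) of -0.58 ± 0.21. IDH1 had 15.9 ± 3.001 CPM in males and 12.0 ± 2.84 CPM in females, a fold of 0.43 ± 0.17. GPD1 had 1449 ± 177 CPM in males and 1726 ± 252 CPM in females, a fold of -0.26 ± 0.11. All 3 overlapped between the sexes, and none passed the adjustment over all features (edgeR adjusted p 0.671, 0.715 and 0.727).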
